A study of Mus musculus with 27 samples.

Results

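A set of 10 genes that sense bacterial endotoxin and related microbial signals was followed in primary mouse cells of 3 kinds, namely microglia, macrophages grown from bone marrow (BMDM) and hepatocytes, treated with saringosterol, with a synthetic compound called GW here, or with vehicle. The genes were chosen by name: Lbp, Cd14, Ly96 and Tlr4, the chain that hands lipopolysaccharide to its receptor, the Toll-like receptor genes Tlr2, Tlr3, Tlr7 and Tlr9, and the adaptor genes Myd88 and Ticam1. All 10 were found among the 55487 gene identifiers of the deposited tables. Lbp led the choice because its level rose in macrophages with both compounds, read here as BMDM. Its BMDM values against vehicle are therefore given below as a description, without a test.

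Lipopolysaccharide, the endotoxin of Gram-negative bacteria, is picked up in body fluids by the secreted protein LBP, passed to CD14 and loaded onto MD-2, the product of Ly96, which sits on the outer part of TLR4. TLR2 senses bacterial lipopeptides at the cell surface, whereas TLR3, TLR7 and TLR9 sense nucleic acids inside endosomes. MYD88 carries the signal of most of these receptors towards NF-kappaB, and TRIF, the product of Ticam1, carries that of TLR3 and of internalised TLR4 towards type I interferon. LBP is made mainly by the liver and increases in the acute phase response, and CD14, TLR4 and MD-2 are best known from cells of the macrophage lineage.

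In the GRCm38 annotation of the deposited tables Lbp (ENSMUSG00000016024) lies at chr2:158306493-158332852 on the plus strand and Cd14 (ENSMUSG00000051439) at chr18:36725067-36726798 on the minus strand. Tlr4 (ENSMUSG00000039005) lies at chr4:66827584-66930284 on the plus strand and Ly96 (ENSMUSG00000025779) at chr1:16688051-16709611 on the plus strand. Tlr2 (ENSMUSG00000027995) lies at chr3:83836272-83841767, Tlr3 (ENSMUSG00000031639) at chr8:45395665-45411080 and Tlr7 (ENSMUSG00000044583) at chrX:167304929-167330558, all on the minus strand. Tlr9 (ENSMUSG00000045322) lies at chr9:106222598-106226883 on the plus strand. Myd88 (ENSMUSG00000032508) lies at chr9:119335934-119341411 and Ticam1 (ENSMUSG00000047123) at chr17:56269319-56276786, both on the minus strand. Counts cover the exons of the whole gene.

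The series holds 27 libraries of polyadenylated RNA, 3 in each of 9 groups. Each cell type was exposed for 24 h to 10 µM saringosterol, a sterol of plants and algae, to 1 µM GW, or to an equal volume of ethanol. The labels spell the synthetic compound GW3596, GW3964 and GW3965, of which GW3965 is known as an agonist of the liver X receptors (LXR), and the series title asks how the sterol acts on lipid and inflammatory genes in different cells. No endotoxin was added per the labels, so all values are those of cells without a deliberate microbial stimulus. Microglia, shaken off mixed glial cultures, and BMDM, differentiated with M-CSF, were treated in DMEM/F12 with 25 ng/ml M-CSF, albumin, insulin, transferrin and selenite; hepatocytes, plated on collagen, were treated in Williams' E medium without them. No serum was present in either medium, and since hepatocytes had a medium of their own, medium and cell type cannot be told apart there. The labels used here give no strain, age or sex and do not say whether replicates came from separate animals or cultures, so p-values measure only the spread between these libraries. The compounds were given at different doses, and every comparison of saringosterol with GW sets 10 µM beside 1 µM.

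Libraries held 30295862 to 41040268 counts, so that a count of 0 allows up to 3 counts, or 0.0731 to 0.0990 CPM (counts scaled by library size), with counting error only. Marker sums set hepatocytes apart from microglia and BMDM. Macrophage markers summed to 36348 to 41004 CPM in microglia, 22931 to 30841 CPM in BMDM and 332 to 379 CPM in hepatocytes. Hepatocyte markers summed to at most 0.248 CPM in microglia, at most 1.52 CPM in BMDM and 10011 to 10555 CPM in hepatocytes. The 8 microglia markers summed to 829 to 1033 CPM in microglia, 232 to 277 CPM in BMDM and 95.2 to 107 CPM in hepatocytes. Of these, Tmem119 and Sall1 stood at 2.53 to 4.86 CPM and 2.06 to 3.55 CPM in microglia, and Siglech was at 0 in all 9 microglia libraries. In hepatocytes Cd68 made up 324 to 374 CPM of the macrophage sum, while Adgre1, Csf1r, Ptprc and Tyrobp did not exceed 1.14 CPM and Itgam was at 0 in 6 of 9 libraries. Some marker sums of other cell types moved with treatment. In microglia, astrocyte markers summed to 29.1 to 36.1 CPM with saringosterol and 63.9 to 67.9 CPM with GW against 46.6 to 49.7 CPM with vehicle. In BMDM they summed to 15.7 to 21.5 CPM with saringosterol and 47.9 to 50.2 CPM with GW against 37.2 to 43.5 CPM with vehicle, and macrophage markers to 22931 to 24449 CPM with saringosterol and 28539 to 30619 CPM with GW against 29246 to 30841 CPM with vehicle. Liver endothelium markers summed to 50.7 to 59.4 CPM in saringosterol-treated and 86.0 to 88.8 CPM in GW-treated BMDM against 29.4 to 30.9 CPM with vehicle. Dendritic cell markers summed to 84.4 to 100.3 CPM in GW-treated microglia against 149 to 161 CPM with vehicle, and Kupffer cell markers to 299.6 to 417 CPM in saringosterol-treated and 439 to 463 CPM in GW-treated BMDM against 115.5 to 120.3 CPM with vehicle; their part in the results was not tested. One BMDM library treated with saringosterol, replicate 3, stood apart: 18 interferon-stimulated genes summed to 1195 CPM in it, to 247 and 288 CPM in replicates 1 and 2, and to 541 to 787 CPM in the 3 vehicle libraries. Acute phase genes summed to 100.05 CPM in it, to 7.83 and 7.24 CPM in replicates 1 and 2, and to 13.1 to 28.1 CPM with vehicle. For Cd14, Tlr4, Tlr2, Myd88 and Ticam1, BMDM results for saringosterol against vehicle are given with and without it. Fold changes of other pathway genes hold it, as do differences between cell types unless stated.

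**Figure D1:**
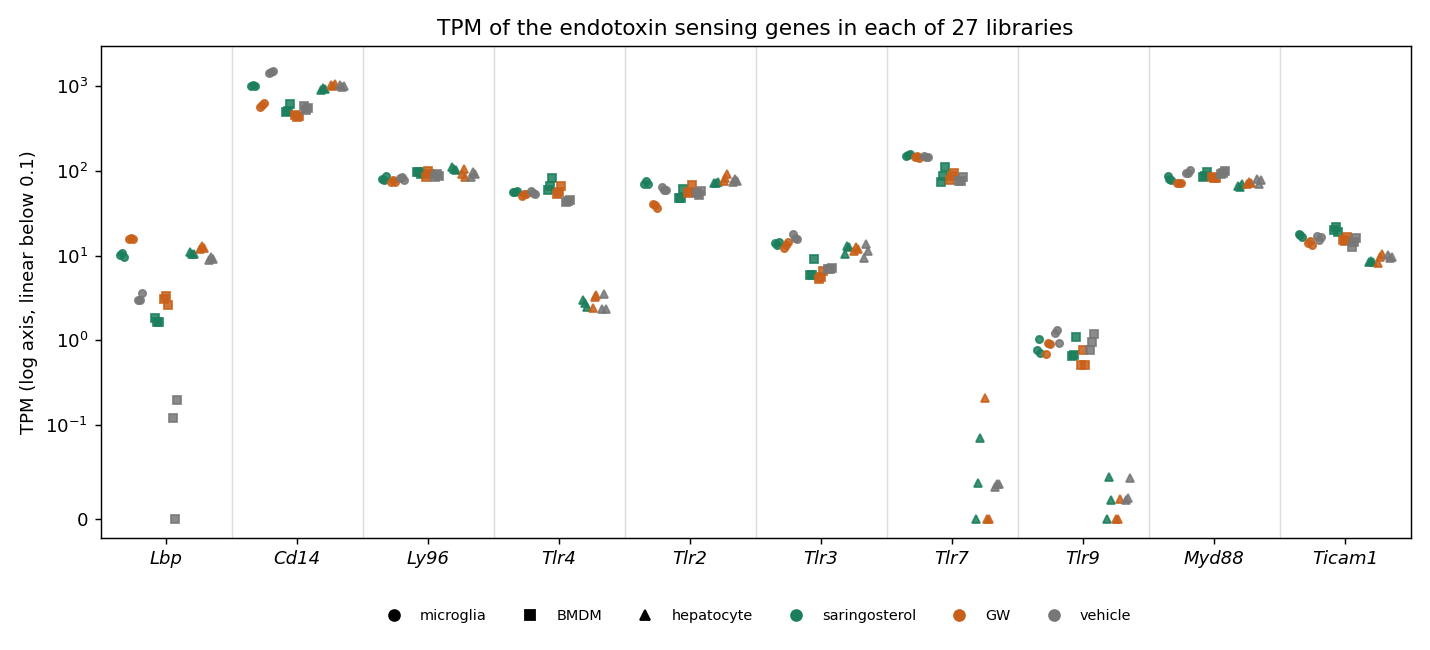
TPM of each gene (horizontal axis) in every library, on a log axis that is linear below 0.1. Shape gives the cell type, colour the treatment, and each point is 1 library. Cd14 was the highest of the 10 genes in all 9 groups, Tlr4 lay at 2.31 to 3.56 TPM in hepatocytes, and Tlr7 and Tlr9 were close to 0 there.

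The genes differed widely in level. On the scale of transcript abundance (TPM), which corrects for gene length, Cd14 ranked first of the 10 in every group and ranged over 577 to 1523 TPM in microglia, 430 to 622 TPM in BMDM and 895 to 1060 TPM in hepatocytes. Ly96 lay at 73.4 to 87.0 TPM in microglia, 84.4 to 101 TPM in BMDM and 84.2 to 113 TPM in hepatocytes. Tlr4, the receptor of this chain, lay at 50.7 to 57.9 TPM in microglia and 43.4 to 82.2 TPM in BMDM but at 2.31 to 3.56 TPM in hepatocytes, from 169 to 263 counts per library. The median ratio of Cd14 to Tlr4 TPM was 433 in vehicle-treated hepatocytes, 27.4 in vehicle-treated microglia and 12.1 in vehicle-treated BMDM. Tlr2 lay at 71.8 to 91.5 TPM in hepatocytes. In bulk samples, a smaller number of cells and less RNA per cell cannot be told apart.

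Among the endosomal receptors, Tlr7 ranked second in microglia with 143 to 159 TPM and reached 74.6 to 112 TPM in BMDM, whereas 0 to 12 counts per library fell on it in hepatocytes. Tlr9, the receptor for CpG DNA, stayed at 0.692 to 1.32 TPM in microglia and 0.505 to 1.17 TPM in BMDM, with 0 to 2 counts per library in hepatocytes. Neither gene passed the filter on low counts in hepatocytes, and neither has a fold change there. Tlr3, the receptor for double-stranded RNA, lay at 12.4 to 17.9 TPM in microglia, 5.29 to 9.08 TPM in BMDM and 9.27 to 13.6 TPM in hepatocytes. Myd88 ranged over 65.4 to 101 TPM across all 27 libraries and Ticam1 over 8.16 to 21.9 TPM. Myd88 shares 290 exon bases with Acaa1a on the opposite strand, a gene with up to 5387 counts in a library, and the strand setting of the counting is not given in the sources used here, so Myd88 values are uncertain.

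Vehicle-treated cells were compared in 1 edgeR fit of all 27 libraries. Cd14 was higher in microglia than in BMDM by 1.32 ± 0.06 on the log2 scale (SE, 3 libraries each; edgeR adjusted p = 1.2e-18), and Tlr3 by 1.15 ± 0.12 (edgeR adjusted p = 2.9e-09) and Tlr7 by 0.80 ± 0.13 (edgeR adjusted p = 2.7e-05) in the same direction. Ly96 was lower in microglia, by -0.19 ± 0.07 (edgeR adjusted p = 0.028), a call that ended on plain library totals (adjusted p = 0.076) and without any 1 of 4 libraries. In all, 4 of the 9 genes tested were called, where 46.5% of all genes were. Hepatocytes differed from microglia in 7 of 8 genes (73.5% of all genes) and from BMDM in 6 of 7 (75.2%). The genes counted had passed the filter in both cell types compared, whereas the shares cover all genes of the fit. Plain library totals moved the median of all genes by 0.37 for hepatocytes against microglia and 0.39 for hepatocytes against BMDM, and of the genes called in these comparisons only Ly96 changed direction with it. Tlr4 was lower in hepatocytes than in microglia by -4.65 ± 0.14 (edgeR adjusted p = 3.7e-19) and than in BMDM by -4.43 ± 0.14 (edgeR adjusted p = 8.2e-19). Lbp was higher in hepatocytes than in microglia by 1.21 ± 0.13 (edgeR adjusted p = 6.7e-10). Ly96 was lower in hepatocytes with edgeR's scaling, by -0.16 against microglia and -0.35 against BMDM, and higher by 0.22 and 0.05 on plain totals, so no direction is given for it.

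Promoter windows from RefSeq (GRCm38.p6) were used for 5 of the genes, namely Tlr2, Tlr3, Tlr9, Myd88 and Ticam1. No window was searched for Lbp, Cd14, Tlr4, Ly96 or Tlr7. Each of the 5 windows ran from 250 bases before to 50 bases after the annotated start. They were searched on both strands for an interferon-stimulated response element core (GAAA, any 2 bases, GAAA), for an NF-kappaB site (GGG, any 3 bases, TTCC) and for the direct repeat bound by LXR (AGGTCA, any 4 bases, AGGTCA), which are the elements of interferon signalling, of Toll-like receptor signalling and of LXR. The 3 windows with a match are printed 5′ to 3′ on the strand of the gene, with the match in capitals. Tlr2 lies at chr3:83841559-83841858 (minus strand), Tlr3 at chr8:45410331-45410630 (minus strand) and Myd88 at chr9:119339969-119340268 (minus strand).
Tlr2: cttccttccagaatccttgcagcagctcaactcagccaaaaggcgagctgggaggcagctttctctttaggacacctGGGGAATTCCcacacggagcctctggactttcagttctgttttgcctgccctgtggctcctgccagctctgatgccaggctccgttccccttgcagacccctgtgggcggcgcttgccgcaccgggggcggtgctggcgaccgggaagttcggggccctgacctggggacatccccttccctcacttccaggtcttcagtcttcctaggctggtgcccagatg
Tlr3: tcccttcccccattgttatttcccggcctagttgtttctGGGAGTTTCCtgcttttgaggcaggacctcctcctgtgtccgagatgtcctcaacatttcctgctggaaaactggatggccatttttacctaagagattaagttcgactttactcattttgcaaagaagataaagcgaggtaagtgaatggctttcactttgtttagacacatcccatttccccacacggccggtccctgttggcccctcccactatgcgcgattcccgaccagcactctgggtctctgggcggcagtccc
Myd88: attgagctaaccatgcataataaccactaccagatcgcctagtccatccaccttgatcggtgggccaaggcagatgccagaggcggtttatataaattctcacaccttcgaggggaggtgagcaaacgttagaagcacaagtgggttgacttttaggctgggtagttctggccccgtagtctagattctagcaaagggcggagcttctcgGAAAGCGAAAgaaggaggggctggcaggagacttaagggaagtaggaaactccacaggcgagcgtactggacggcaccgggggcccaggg
Distances are from the RefSeq start. The deposited annotation starts Tlr2, Tlr3 and Myd88 further upstream. On the gene coordinates given above, the matches of Tlr3 and Myd88 lie inside the gene, and that of Tlr2 lies just before its start. The capitals mark an NF-kappaB match that begins 173 bases before the start of Tlr2 and 211 bases before that of Tlr3, and an interferon element match 40 bases before that of Myd88. Of all 32851 promoter windows of this length, 5.56% held the NF-kappaB letters, 3.44% the interferon element letters and 0.0152% the direct repeat, which was in none of the 5 windows. A match is a description of letters and not a measured binding site.

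Lbp, the secreted carrier of endotoxin, rose in microglia with both compounds, and its log2 change was the largest of the 10 genes there. In microglia it stood at 16.5, 17.2 and 15.4 CPM with saringosterol, at 26.9, 27.1 and 26.6 CPM with GW, and at 4.78, 4.80 and 5.92 CPM with vehicle. The 3 groups did not overlap, and GW-treated libraries were highest. The rise was 3.17-fold with saringosterol (log2 1.67 ± 0.10, SE, n = 3 each, edgeR adjusted p = 1.5e-13) and 5.21-fold with GW (log2 2.38 ± 0.10, edgeR adjusted p = 2.2e-18). Saringosterol at 10 µM left Lbp lower than GW at 1 µM, by -0.72 ± 0.09 (edgeR adjusted p = 1.2e-07). All 10 hepatocyte markers together stayed at or below 0.248 CPM in these libraries, and which cells the Lbp RNA came from was not tested.

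In BMDM Lbp was close to the detection limit with vehicle and higher with either compound. Counts were 97, 110 and 110 with saringosterol, 202, 221 and 167 with GW, and 8, 0 and 12 with vehicle. On scaled library sizes this was 2.79 ± 0.19 CPM with saringosterol, 5.04 ± 0.63 CPM with GW and 0.180 ± 0.169 CPM with vehicle (SD, n = 3). The groups did not overlap, and the library treated with saringosterol that stood apart in interferon-stimulated genes (2.67 CPM) was like the other 2 (3.01 and 2.69 CPM). The fitted log2 fold changes were 3.91 with saringosterol and 4.76 with GW, and they moved to 3.36 and 4.22 without vehicle replicate 2, the library with 0 counts, and to 4.65 and 5.51 without vehicle replicate 3. Between the compounds the fitted log2 difference was -0.85, given without a test because these libraries chose the genes.

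In hepatocytes, the main source of LBP in the body, Lbp rose with GW. It stood at 19.4, 17.7 and 17.6 CPM with saringosterol, at 20.8, 22.6 and 21.3 CPM with GW, and at 15.5, 16.3 and 15.7 CPM with vehicle, and the groups did not overlap. The rise with GW was 1.36-fold (log2 0.45 ± 0.08, edgeR adjusted p = 0.0023) and was not called in the fit of all 27 libraries (adjusted p = 0.17). For saringosterol the log2 difference was 0.20 ± 0.09 (edgeR adjusted p = 0.23). Of 16 acute phase genes of hepatocytes set beside it, 2 rose and 1 fell with saringosterol (1.91% of all genes called), and 1 rose and 0 fell with GW (1.11%), where DESeq2 called 3 of them. In microglia 7 of this list were tested. With saringosterol 0 were called (10.8% of all genes), where 3 had an unadjusted p under 0.05 and DESeq2 called 0. With GW 0 rose and 2 fell there, close to the share of all genes (28.7%). Their median log2 differences in microglia were -0.24 with saringosterol and -0.51 with GW.

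Responses were set against each other between cell types in the fit of 27 libraries. The response of Lbp was larger in microglia than in hepatocytes by 1.5 ± 0.18 with saringosterol (edgeR adjusted p = 4.2e-06) and by 1.96 ± 0.18 with GW (edgeR adjusted p = 1.7e-09). On TPM means, GW-treated microglia reached 15.8 ± 0.174 TPM (SD, n = 3), above all hepatocyte groups, the highest of which had 12.5 ± 0.521 TPM. Saringosterol-treated microglia, at 10.2 ± 0.610 TPM, overlapped saringosterol-treated and vehicle-treated hepatocytes, while vehicle-treated microglia had 3.18 ± 0.379 TPM and vehicle-treated BMDM 0.105 ± 0.0984 TPM. TPM does not carry edgeR's scaling between cell types, so these positions hold for TPM only. With vehicle, the log2 difference of Lbp, hepatocytes minus microglia, was 1.21 with edgeR's scaling and 1.59 on plain library totals.

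**Figure D2:**
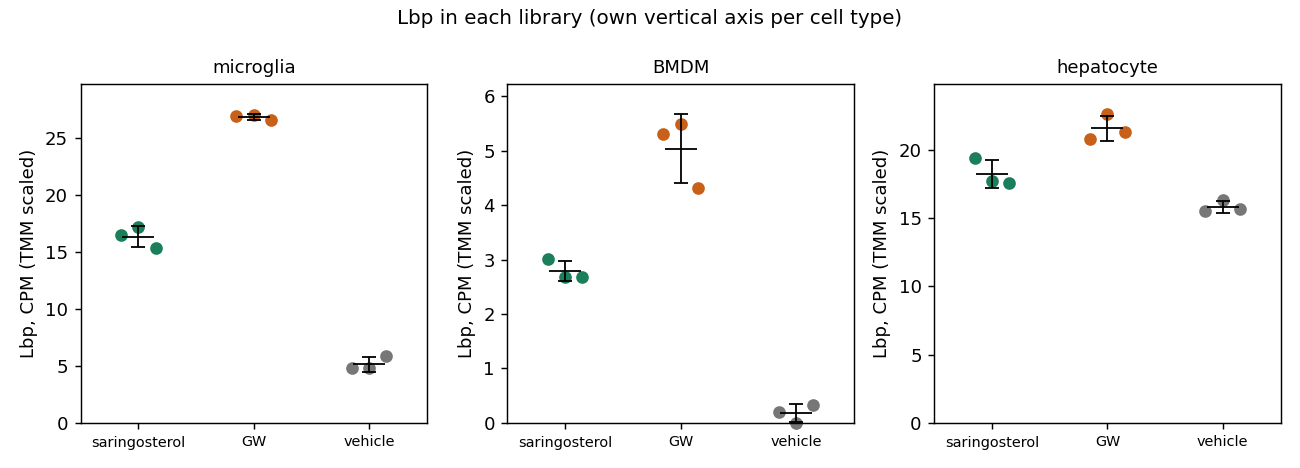
Lbp in CPM on TMM-scaled library sizes, with its own vertical axis from 0 for each cell type. Points are libraries, bars the mean ± SD of 3; the groups in each cell type did not overlap, and GW-treated libraries were highest in each.

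Cd14, the coreceptor that takes endotoxin from LBP, moved the other way from Lbp in microglia. It stood at 583, 587 and 586 CPM with saringosterol, at 355, 366 and 382 CPM with GW, and at 832, 865 and 892 CPM with vehicle. The groups were far apart, with vehicle highest and GW lowest. Cd14 fell by 0.56 ± 0.04 on the log2 scale with saringosterol (edgeR adjusted p = 1.4e-12) and by 1.23 ± 0.04 with GW, 2.35-fold (edgeR adjusted p = 1.1e-21), and it was higher with saringosterol than with GW by 0.67 ± 0.04 (edgeR adjusted p = 4.7e-15).

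In BMDM Cd14 fell with GW, by less than in microglia. It stood at 290, 295 and 360 CPM with saringosterol, at 285, 254 and 272 CPM with GW, and at 361, 323 and 338 CPM with vehicle. The GW libraries lay below all vehicle libraries (log2 -0.33 ± 0.08, edgeR adjusted p = 0.010), a call that ended without GW replicate 2 (adjusted p = 0.064), GW replicate 3 (0.059) or vehicle replicate 1 (0.080). With saringosterol the library that stood apart, replicate 3, was the high one at 360 CPM; the log2 difference was -0.11 ± 0.08 (edgeR adjusted p = 0.39) with it and -0.22 ± 0.06 (edgeR adjusted p = 0.015) without it.

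In hepatocytes Cd14 stood at 565, 581 and 564 CPM with saringosterol, at 644, 623 and 659 CPM with GW, and at 654, 603 and 618 CPM with vehicle. Saringosterol libraries lay below all others, but the difference from vehicle did not pass (log2 -0.13 ± 0.04, edgeR adjusted p = 0.098), and that from GW did (log2 -0.17 ± 0.04, edgeR adjusted p = 0.024) until any 1 of 6 libraries was left out. The response of Cd14 to GW was more negative in microglia than in BMDM by -0.91 ± 0.09 (edgeR adjusted p = 5.4e-09) and than in hepatocytes by -1.25 ± 0.09 (edgeR adjusted p = 1.0e-12). The response to saringosterol was more negative in microglia than in BMDM by -0.45 ± 0.09 (edgeR adjusted p = 0.0024) and than in hepatocytes by -0.39 ± 0.09 (edgeR adjusted p = 0.012). GW also set BMDM apart from hepatocytes, by -0.34 ± 0.09 (edgeR adjusted p = 0.013; not called without BMDM GW replicate 2 or vehicle replicate 1).

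Ly96 and Tlr4, the receptor pair itself, were not called in microglia with either compound. Tlr4 stood at 103, 103 and 107 CPM with saringosterol, at 100.02, 103 and 103 CPM with GW, and at 107, 101 and 99.9 CPM with vehicle. The log2 difference was 0.02 ± 0.04 with saringosterol (edgeR adjusted p = 0.82) and -0.01 ± 0.04 with GW (edgeR adjusted p = 0.87). Ly96 lay at 26.2 to 29.7 CPM over the 9 microglia libraries, with log2 differences of -0.01 ± 0.07 and -0.06 ± 0.07. The groups overlapped for both genes, except that the Tlr4 values with saringosterol all lay above those with GW, by 0.04 ± 0.04 on the log2 scale (edgeR adjusted p = 0.61).

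In BMDM Tlr4 rose with saringosterol. It stood at 112, 124 and 153 CPM with saringosterol, at 105, 108 and 129 CPM with GW, and at 85.6, 85.8 and 90.0 CPM with vehicle. Every treated library lay above every vehicle library. The rise with saringosterol was 1.49-fold (log2 0.57 ± 0.11, edgeR adjusted p = 0.010); without the library that stood apart it was 0.43 ± 0.07 (edgeR adjusted p = 0.00023), and without vehicle replicate 1 the call ended (adjusted p = 0.065). With GW the log2 difference was 0.39 ± 0.11 (edgeR adjusted p = 0.055) over all libraries and the same size with a smaller error, 0.39 ± 0.07 (edgeR adjusted p = 0.00016), when saringosterol replicate 3 was left out of the fit. Ly96 lay at 30.6 to 35.1 CPM over the 9 BMDM libraries and was called with neither compound.

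The difference in the Tlr4 response, microglia minus BMDM, was -0.56 ± 0.16 with saringosterol (edgeR adjusted p = 0.067) and -0.41 ± 0.16 with GW (edgeR adjusted p = 0.11). Against hepatocytes the BMDM response to saringosterol was larger by 0.63 ± 0.20 (edgeR adjusted p = 0.046), a call that ended on plain library totals (adjusted p = 0.082) and without most single libraries. In hepatocytes Tlr4 ranged over 4.57 to 6.96 CPM with no call.

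**Figure D3:**
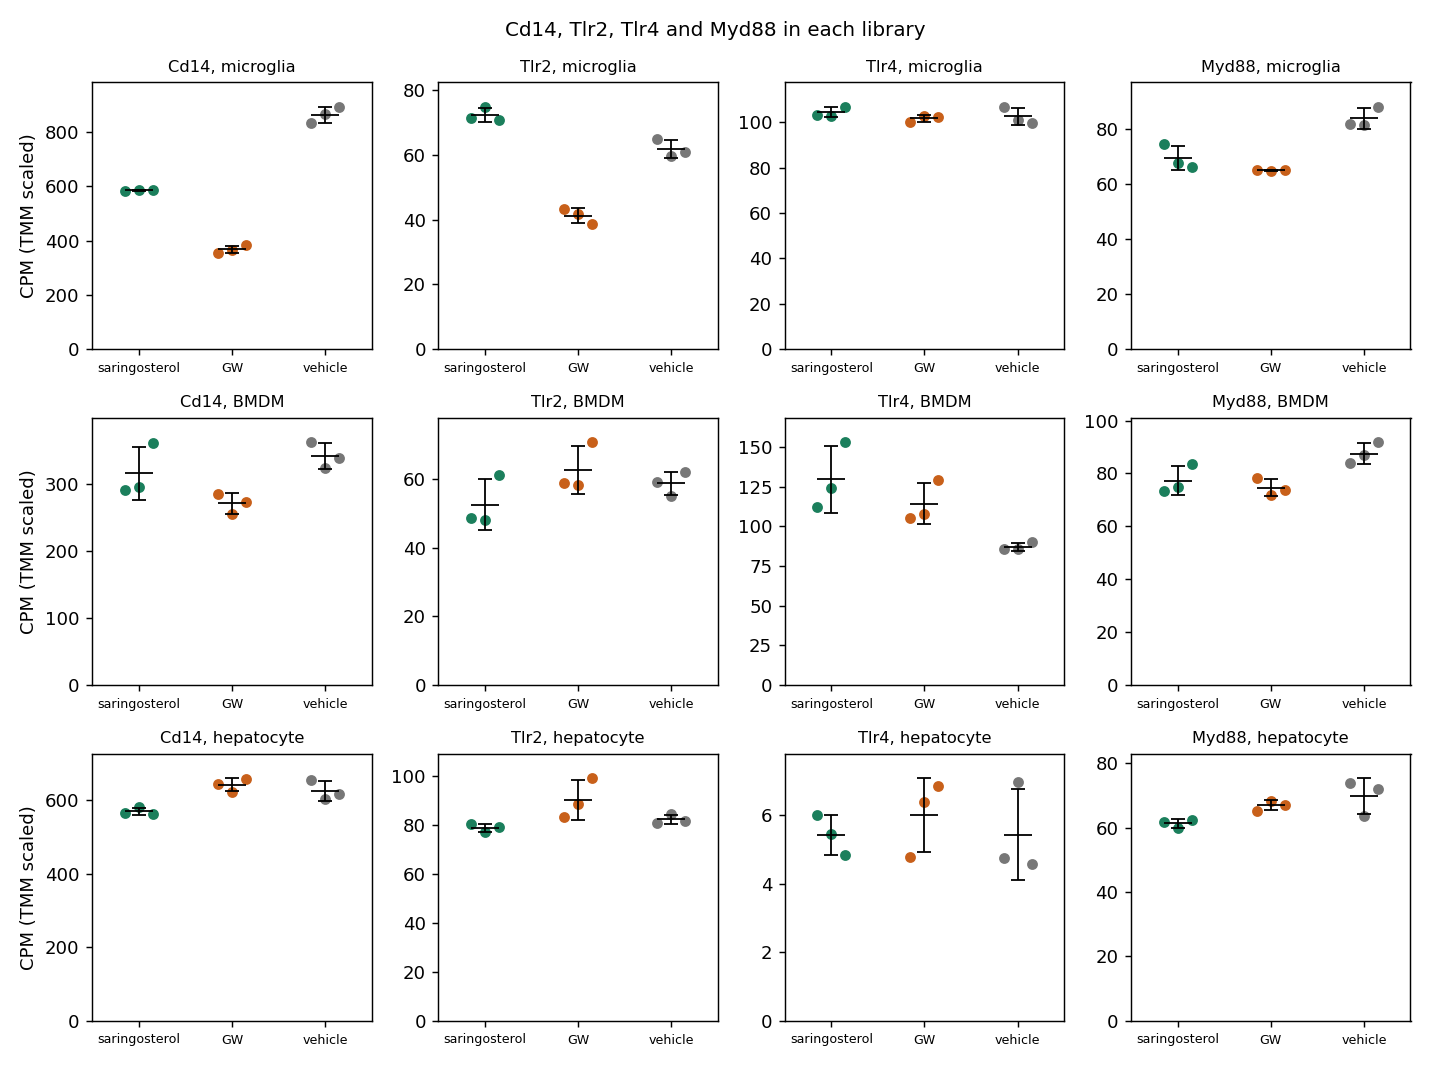
CPM on TMM-scaled library sizes of Cd14, Tlr2, Tlr4 and Myd88 (columns) in microglia, BMDM and hepatocytes (rows), each panel on its own axis from 0. Points are libraries, bars the mean ± SD of 3. Cd14 separated all 3 groups in microglia, Tlr2 was above vehicle with saringosterol and below it with GW there, and Tlr4 was above vehicle with both compounds in BMDM.

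Tlr2, the receptor for bacterial lipopeptides, moved in opposite directions with the compounds in microglia. It stood at 71.3, 74.9 and 70.9 CPM with saringosterol, at 43.4, 41.7 and 38.7 CPM with GW, and at 65.0, 59.7 and 61.0 CPM with vehicle. No groups overlapped. With GW it fell by 0.59 ± 0.05 on the log2 scale (edgeR adjusted p = 6.1e-10), and saringosterol exceeded GW by 0.81 ± 0.05 (edgeR adjusted p = 7.7e-13). The rise over vehicle with saringosterol was smaller, 0.23 ± 0.05 (edgeR adjusted p = 0.0042), and was not called in the fit of all 27 libraries (adjusted p = 0.11).

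In BMDM and hepatocytes Tlr2 was not called against vehicle over all libraries. In BMDM it stood at 48.6, 48.0 and 61.1 CPM with saringosterol, at 58.9, 58.3 and 70.7 CPM with GW, and at 59.2, 55.0 and 61.9 CPM with vehicle. Without saringosterol replicate 3, the high one, Tlr2 was lower with saringosterol than with vehicle (log2 -0.28 ± 0.08, edgeR adjusted p = 0.022) and than with GW (log2 -0.38 ± 0.08, edgeR adjusted p = 0.0023). The difference in the Tlr2 response to saringosterol, microglia minus BMDM, was 0.38 ± 0.11 (edgeR adjusted p = 0.073, and 0.043 on plain library totals). Without saringosterol replicate 3 it was 0.50 (edgeR adjusted p = 0.0038). The response to GW was more negative in microglia than in BMDM by -0.69 ± 0.11 (edgeR adjusted p = 9.2e-05) and than in hepatocytes by -0.70 ± 0.11 (edgeR adjusted p = 5.1e-05), where Tlr2 ranged over 76.9 to 99.0 CPM.

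Of the endosomal receptors, Tlr3 fell slightly in microglia with both compounds and Tlr7 and Tlr9 were not called. Tlr3 stood at 24.3, 23 and 25.2 CPM with saringosterol, at 22.9, 24.2 and 26 CPM with GW, and at 31.0, 27.9 and 27.9 CPM with vehicle. All treated libraries lay below all vehicle libraries (log2 -0.26 ± 0.07, edgeR adjusted p = 0.017, and -0.25 ± 0.07, edgeR adjusted p = 0.0097). The calls ended without vehicle replicate 1 (adjusted p = 0.10 and 0.071), without saringosterol replicate 2 (0.092) and without GW replicate 1 (0.068). Neither was called in the fit of all 27 libraries (adjusted p = 0.30 and 0.19). Tlr7, the receptor for single-stranded RNA, lay at 201 to 217 CPM over the 9 microglia libraries, with log2 differences of 0.04 ± 0.04 for both compounds. Tlr9 lay at 0.830 to 1.54 CPM, from 30 to 60 counts per library, and at that depth the SE of its log2 difference was 0.29.

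In BMDM the library that stood apart was also high in endosomal receptors. Tlr3 stood at 10.5, 10.3 and 15.8 CPM with saringosterol, at 9.89, 10.0 and 12.1 CPM with GW, and at 12.7, 12.7 and 13.2 CPM with vehicle. Tlr7 stood at 104, 119 and 153 CPM with saringosterol, at 114, 121 and 134 CPM with GW, and at 111, 109 and 124 CPM with vehicle. For both genes the highest of the 9 libraries was saringosterol replicate 3, which was also the highest in the interferon-stimulated sum and for Tlr4. Neither gene, nor Tlr9 at 0.621 to 1.46 CPM, was called in any BMDM comparison, with or without it. Tlr3 was not called in hepatocytes either, where it ranged over 17.5 to 24.9 CPM.

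**Figure D4:**
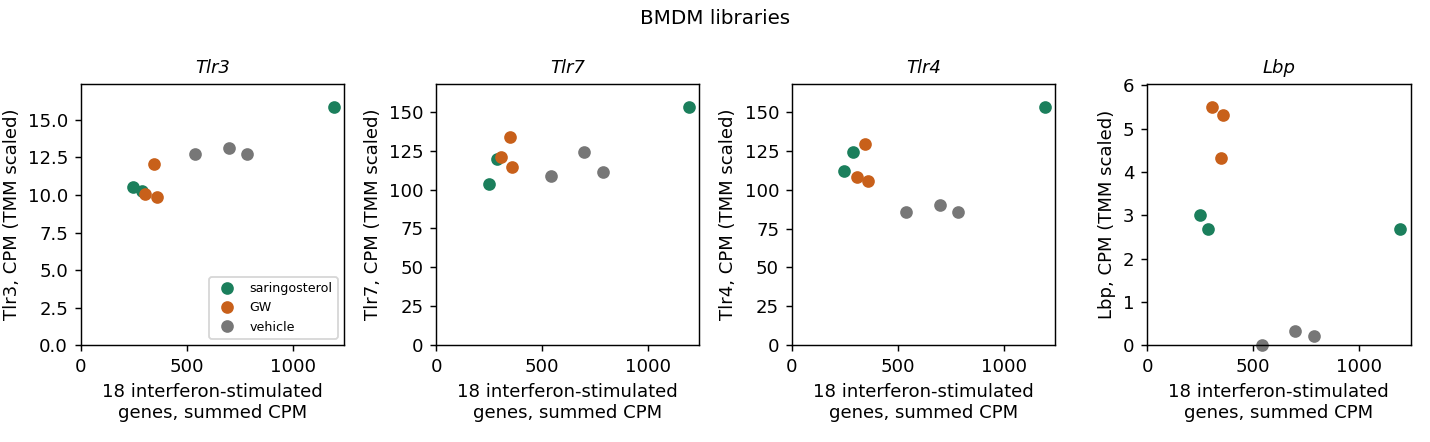
CPM of Tlr3, Tlr7, Tlr4 and Lbp (vertical axes, from 0) against the summed CPM of 18 interferon-stimulated genes (horizontal axes) in the 9 BMDM libraries. Saringosterol replicate 3, at 1195 CPM on the horizontal axis, was the highest library for Tlr3, Tlr7 and Tlr4 but for Lbp, at 2.67 CPM, lay close to the other saringosterol libraries at 3.01 and 2.69 CPM.

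Myd88, the adaptor shared by most Toll-like receptors, was lower in microglia with both compounds. It stood at 74.6, 67.8 and 66.3 CPM with saringosterol, at 65.3, 64.8 and 65.1 CPM with GW, and at 81.8, 81.7 and 88.3 CPM with vehicle. The treated libraries lay below all vehicle libraries (log2 -0.27 ± 0.05, edgeR adjusted p = 0.00033, with saringosterol and -0.37 ± 0.05, edgeR adjusted p = 1.0e-06, with GW). Acaa1a, whose exons overlap those of Myd88, stood at 122 ± 4.96 CPM with saringosterol, 107 ± 1.38 CPM with GW and 130 ± 2.17 CPM with vehicle (SD, n = 3) in the same libraries. These Acaa1a values are on plain library totals, whereas those of Myd88 are on scaled library sizes. For GW against vehicle in microglia, plain totals moved the median log2 difference of all genes by -0.06. All 18 interferon-stimulated genes fell in microglia with saringosterol (median log2 -0.71) and with GW (median log2 -1.37). Of all genes 10.8% and 28.7% were called in either direction, with median log2 differences of -0.003 and -0.005. The part of the interferon-stimulated genes in the changes of Myd88 and Tlr3 was not tested.

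In BMDM Myd88 stood at 73.4, 75.0 and 83.6 CPM with saringosterol, at 78.1, 71.9 and 73.8 CPM with GW, and at 83.9, 86.9 and 91.8 CPM with vehicle. Treated libraries again lay below vehicle libraries. It fell with GW (log2 -0.23 ± 0.06, edgeR adjusted p = 0.027), a call lost without any 1 of 4 libraries (GW replicate 2 or 3, vehicle replicate 2 or 3; adjusted p = 0.085 to 0.13). With saringosterol the difference was -0.18 ± 0.06 (edgeR adjusted p = 0.086) with replicate 3 and -0.24 ± 0.07 (edgeR adjusted p = 0.015) without it. In hepatocytes it ranged over 59.8 to 74.0 CPM and was not called over all libraries, and its response to GW was more negative in microglia than in hepatocytes by -0.28 ± 0.09 (edgeR adjusted p = 0.040), a call that ended without any 1 of 9 libraries.

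Ticam1, which encodes TRIF, rose in BMDM with saringosterol. It stood at 20.6, 22 and 19.2 CPM with saringosterol, at 16.3, 15 and 17.1 CPM with GW, and at 13.4, 15.1 and 17.2 CPM with vehicle. Saringosterol libraries lay above all others (log2 0.43 ± 0.10 over vehicle, edgeR adjusted p = 0.011, and 0.35 ± 0.10 over GW, edgeR adjusted p = 0.039). The first call ended without saringosterol replicate 2, vehicle replicate 1 or vehicle replicate 2 (adjusted p = 0.052 to 0.060), and the second without any 1 of 6 libraries. Without saringosterol replicate 3 the differences were 0.48 ± 0.11 over vehicle (edgeR adjusted p = 0.0046) and 0.39 ± 0.11 over GW (edgeR adjusted p = 0.023). In microglia Ticam1 was called only between the compounds, at 17.4 ± 0.669 CPM with saringosterol against 14.7 ± 0.829 CPM with GW (log2 0.24 ± 0.08, edgeR adjusted p = 0.034; lost without any 1 of 4 libraries). The response to saringosterol was larger in BMDM than in hepatocytes by 0.67 ± 0.14 (edgeR adjusted p = 0.0026), where Ticam1 ranged over 8.71 to 11.2 CPM with no call.

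**Figure D5:**
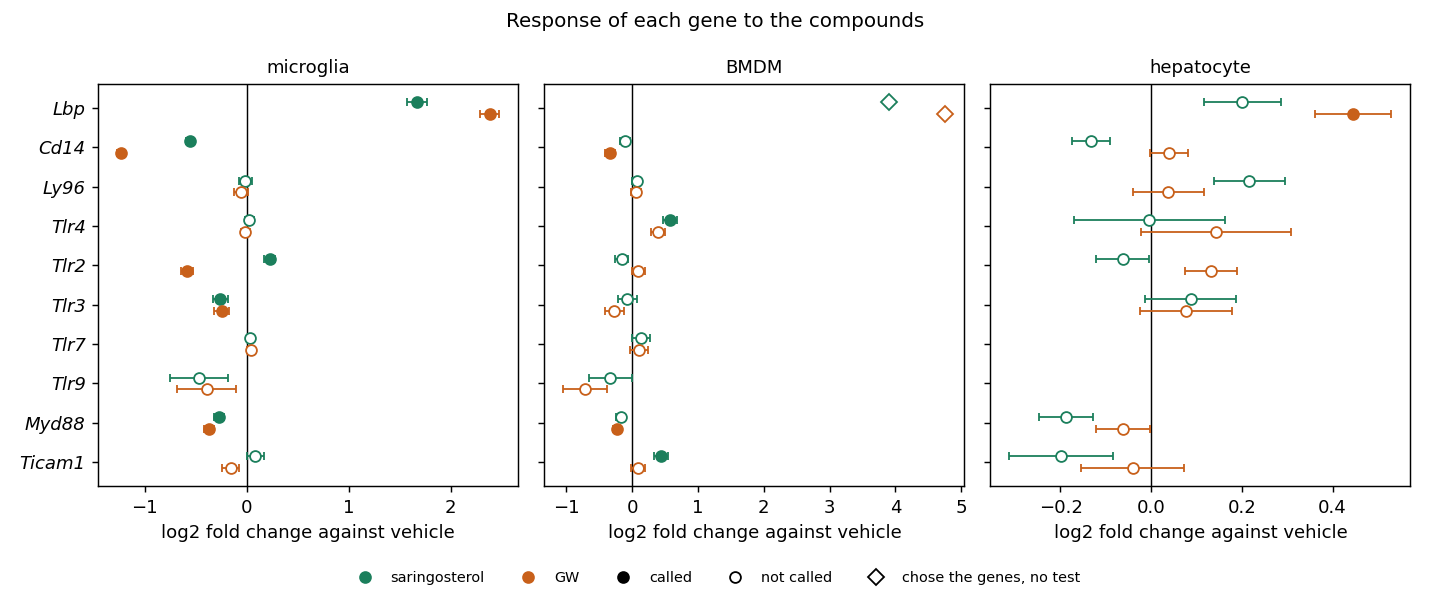
Log2 fold change against vehicle of each gene in microglia, BMDM and hepatocytes, with its SE; each panel has its own horizontal axis. Filled points were called by edgeR, open ones were not, and diamonds are the Lbp values that chose the genes and have no test. Tlr7 and Tlr9 have no value in hepatocytes. Lbp rose and Cd14 fell with both compounds in microglia, and Tlr2 moved in opposite directions.

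Counted over the 10 genes, 2 were higher and 3 lower with saringosterol in microglia, where 10.8% of all 16065 genes tested were called, and 1 was higher and 4 lower with GW, where 28.7% were. Between the compounds in microglia 3 were higher and 1 lower with saringosterol (25.5% of all genes). In BMDM 2 of 9 were called with saringosterol, both higher (10.7% of all genes), 2 of 9 with GW, both lower (10.4%), and 1 of the 9 others than Lbp between the compounds (9.33%), which was Ticam1. The BMDM count with saringosterol was 5 without saringosterol replicate 3, 1 without saringosterol replicate 2 or vehicle replicate 2, and 0 without vehicle replicate 1. The BMDM count with GW was 0 without GW replicate 2 or 3, 1 without vehicle replicate 1, 2 or 3, and 3 without saringosterol replicate 1 or 3. Between the compounds it was 0 without saringosterol replicate 2, GW replicate 1, 2 or 3 or vehicle replicate 2, and 2 without saringosterol replicate 3. In hepatocytes edgeR called 0 of 8 with saringosterol (1.91% of all genes), where 4 had an unadjusted p under 0.05 and DESeq2 also called 0, and without vehicle replicate 2 it called 2. One of 8 was called with GW (1.11%), and 1 of 8 between the compounds (1.96%). In BMDM between the compounds the share was close to that of all genes. For differences in response, 1 of 9 genes was called between microglia and BMDM with saringosterol (2.01% of all genes) and 2 of 9 with GW (9.71%). Between microglia and hepatocytes 2 of 8 were called with saringosterol (1.18%) and 4 of 8 with GW (8.69%), and between BMDM and hepatocytes 2 of 7 with saringosterol (10.1%) and 1 of 7 with GW (4.74%). In these counts each gene had passed the filter in both cell types compared. The shares cover all genes of the fit of 27 libraries, also those that passed in 1 cell type only.

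Another 49 genes of the same pathways were read beside the 10. In microglia 46 were tested: 6 rose and 11 fell with saringosterol, where 10.8% of all genes were called, and 11 rose and 16 fell with GW, where 28.7% were. The median log2 difference was -0.08 with saringosterol and -0.04 with GW, beside 0.00 and -0.01 over all genes. Pltp, which encodes a phospholipid transfer protein that belongs to the same lipid-binding family as LBP, rose most in both. It averaged 299.6 ± 9.89 CPM with saringosterol, 602 ± 9.92 CPM with GW and 148 ± 5.75 CPM with vehicle in microglia (log2 1.02 ± 0.04, edgeR adjusted p = 6.4e-18, and 2.03 ± 0.04, edgeR adjusted p = 3.4e-26). In BMDM Pltp averaged 1152 ± 115 CPM with saringosterol, 1913 ± 128 CPM with GW and 551 ± 41.7 CPM with vehicle, and rose with both (log2 1.06 ± 0.08 and 1.80 ± 0.08).

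In hepatocytes 1 of the 39 pathway genes tested was called with saringosterol (1.91% of all genes) and 1 with GW (1.11%). These counts are close to the shares of all genes. Both calls were of Hsp90b1, the chaperone gp96 that folds Toll-like receptors, which rose with each compound. It averaged 720 ± 20.7 CPM with saringosterol, 759.6 ± 32.9 CPM with GW and 610.4 ± 50.4 CPM with vehicle (log2 0.24 ± 0.05, edgeR adjusted p = 0.0072, and 0.32 ± 0.05, edgeR adjusted p = 0.00017). The count with saringosterol was 0 without saringosterol replicate 2, vehicle replicate 1 or vehicle replicate 3, and 2 without saringosterol replicate 3 or vehicle replicate 2. Between the compounds edgeR called 0 of the 39 (1.96% of all genes), where 4 had an unadjusted p under 0.05 and DESeq2 called 2. In microglia Hsp90b1 rose by 0.35 ± 0.04 with saringosterol and 0.84 ± 0.04 with GW on the log2 scale. Tnfaip3, the deubiquitinase A20 that restrains NF-kappaB, rose with saringosterol in microglia (log2 0.47 ± 0.05) and with both compounds in BMDM (log2 0.64 ± 0.07 and 0.72 ± 0.07, edgeR adjusted p = 1.4e-05 and 1.8e-06).

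Among the genes that fell in microglia were Irf7, the interferon regulatory factor downstream of TLR7 and TLR9, and Gbp2, a guanylate-binding protein. Irf7 averaged 214 ± 7.59 CPM with saringosterol, 141 ± 12.5 CPM with GW and 459 ± 63.3 CPM with vehicle (log2 -1.10 ± 0.11, edgeR adjusted p = 0.00075, and -1.71 ± 0.11, edgeR adjusted p = 2.1e-05). Gbp2 fell by 0.74 ± 0.06 and 1.26 ± 0.06 on the log2 scale. Irak3, a kinase-like inhibitor of MYD88 signalling, fell with saringosterol (log2 -0.39 ± 0.08), and Dusp1, a phosphatase that limits MAP kinase signalling, fell with GW (log2 -1.40 ± 0.05, edgeR adjusted p = 1.3e-18). Dusp1 averaged 78.3 ± 2.42 CPM with saringosterol, 37.3 ± 2.33 CPM with GW and 98.4 ± 5.78 CPM with vehicle. By group, 8 of 20 adaptor and kinase genes fell and 2 rose with GW in microglia, and 4 of 6 receptor partners and chaperones rose and 2 fell, where 28.7% of all genes were called in either direction.

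Scarb1, the scavenger receptor SR-BI that binds both lipoproteins and endotoxin, separated the compounds. In microglia it averaged 90.9 ± 3.12 CPM with saringosterol and 164 ± 3.50 CPM with GW (log2 -0.85 ± 0.04, edgeR adjusted p = 6.5e-16), and in BMDM 126 ± 13.4 CPM with saringosterol and 206 ± 10.5 CPM with GW (log2 -0.71 ± 0.07, edgeR adjusted p = 4.4e-06). Vehicle-treated microglia averaged 113 ± 2.34 CPM, and Scarb1 was above them with GW (log2 0.54 ± 0.04, edgeR adjusted p = 1.4e-11). In BMDM Scarb1 was below vehicle with saringosterol (log2 -0.38 ± 0.07, edgeR adjusted p = 0.0025) and above it with GW (log2 0.34 ± 0.07, edgeR adjusted p = 0.0053). Tlr8, an endosomal receptor for RNA, was lower with saringosterol than with GW in microglia (log2 -0.58 ± 0.05), and Unc93b1, which escorts the endosomal receptors, was lower with saringosterol than with GW in BMDM (log2 -0.35 ± 0.06, edgeR adjusted p = 0.00031). Over all 45 genes tested in BMDM, 8 rose and 3 fell with saringosterol (10.7% of all genes called) and 7 rose and 0 fell with GW (10.4%). The GW count was 13 without saringosterol replicate 3 and 3 without GW replicate 2, vehicle replicate 1 or vehicle replicate 2; it was 4 without GW replicate 1 or 3. The saringosterol count was 5 without vehicle replicate 2 and 6 without saringosterol replicate 2 or vehicle replicate 1. The median log2 difference of the list was 0.04 with each compound, beside -0.01 over all genes.

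The genes whose pattern was most like that of Lbp were found by Pearson's r over the 9 group means of log2 CPM, centred within each cell type, which all share the same libraries. They were Cd38 (r = 0.998), Spats2 (0.991), Kif13b (0.990), Il18bp (0.987) and Dmwd (0.986). Cd38 had group means of log2 CPM of 7.18 with saringosterol, 7.85 with GW and 6.01 with vehicle in microglia, and of 3.96, 4.48 and 1.07 in BMDM in the same order. Over the 27 single libraries Il18bp was the only one of these 5 that was again among the first 5, with r = 0.918, and Spats2 ranked 576. The pattern includes the BMDM values of Lbp that chose the genes. Because the 5 were picked for the highest r among 18979 genes, these r values are a description and support nothing.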

How the data were processed

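RNA was measured in 27 mouse libraries, 3 in each of 9 groups of cell type and treatment. The deposited tables hold read counts per gene, made by the authors, and TPM values, also the authors' own, which divide counts by gene length and scale each library to the same total. Per the submitters' processing notes, bcl2fastq, STAR 2.5.1a and featureCounts 1.4.6-p5 of Subread were used with GRCm38. The strand setting, the multimapping rule and the annotation release were not given in the sources used here. Depth ran from 30295862 to 41040268 counts per library, and the floor is 3 counts.

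Counts were tested with edgeR 4.0.16 (R 4.3.3, limma 3.58.1) by the quasi-likelihood test with TMM scaling, filterByExpr and Benjamini-Hochberg adjustment over all genes tested, in 1 fit per cell type (16065 genes in microglia, 15416 in BMDM, 16098 in hepatocytes) and, for differences between cell types, 1 fit of all 27 libraries (18979 genes). A call is an adjusted p under 0.05. CPM values were computed here from the deposited counts. DESeq2 1.42.0, other scalings, no filter, a replicate block and leaving out each library were tried. Tables and figures used Python 3.11.15, pandas 2.3.3 and matplotlib 3.10.9. The replicate numbers were not used as pairs.

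The 10 genes, the 49 other pathway genes and the marker lists were chosen with earlier results of these data known. Of the 49, the text may name the 3 with the largest called changes in each direction of each comparison. No test of Lbp in BMDM, whose values chose the set, is given on its own. Some counts of calls under other settings, for BMDM between the compounds, include Lbp.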

Additional observations from a re-analysis of the deposited data

Results flagged for a closer look

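For 12 responses the difference between cell types was itself called in the edgeR fit of all 27 libraries, each value being a difference of 2 log2 responses to a compound against vehicle. From 7 to 9 of the genes were tested in each comparison, and 1.18% to 10.1% of all genes were called in them. For Cd14 the response to saringosterol, microglia minus BMDM, was -0.45, and microglia minus hepatocytes -0.39. The Cd14 response to GW was -0.91 for microglia minus BMDM, -1.25 for microglia minus hepatocytes and -0.34 for BMDM minus hepatocytes. For Lbp the difference between microglia and hepatocytes was 1.5 with saringosterol and 1.96 with GW. For Tlr2 the response to GW was -0.69 for microglia minus BMDM and -0.70 for microglia minus hepatocytes. The Myd88 response to GW, microglia minus hepatocytes, was -0.28, and Myd88 shares exon bases with Acaa1a. The responses to saringosterol, BMDM minus hepatocytes, were 0.63 for Tlr4 and 0.67 for Ticam1, in a fit that holds the BMDM library with high interferon-stimulated genes. The Myd88 call and the Cd14 call for BMDM minus hepatocytes ended without some single libraries. The Tlr4 call ended without most single libraries and on plain library totals (edgeR adjusted p = 0.082). The part of the media, which differ between hepatocytes and the other cells, cannot be told apart.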

How the results depend on the processing

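Within a cell type 84 values were compared, among them those of Lbp in BMDM. RLE scaling changed none of the 84. DESeq2 made 2 calls more, no filter on low counts 4 and plain library totals, an alternative chosen after seeing the data, 1. The fit of all 27 libraries added 4 calls and ended 6. In that fit the genes called numbered 3 in microglia with saringosterol, 4 in BMDM and 0 in hepatocytes between the compounds, and 0 in hepatocytes with GW. Pathway genes called there numbered 6 in microglia with saringosterol and 14 between the compounds, and in hepatocytes 0 with saringosterol and 1 between the compounds. In BMDM between the compounds DESeq2 called 2 of the 10 and no filter 4, counts that include Lbp, as does that of 4 in the fit of all 27 libraries; its values chose the genes, and its calls support nothing. For pathway genes in hepatocytes DESeq2 called 2 with saringosterol and 2 between the compounds, and plain totals 1 between them. For the response to saringosterol, microglia minus BMDM, plain totals and DESeq2 called 2 and no filter 3, and plain totals called 1 for BMDM minus hepatocytes. On plain totals Ly96 in vehicle-treated hepatocytes turned to 0.22 against microglia and 0.054 against BMDM; the cause was not tested.

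Libraries with the same replicate number share only a number: the correlations of their deviations ran from -0.148 to 0.111. With a replicate block the genes called numbered 2 in BMDM between the compounds, 2 in hepatocytes with saringosterol and 2 between the compounds; pathway genes in hepatocytes numbered 3 and 2, and 3 differences in the response to saringosterol, microglia minus BMDM, were called.

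Leaving out 1 library gave 4 to 5 genes called in microglia with saringosterol, 4 to 5 with GW and 3 to 4 between the compounds; in BMDM 0 to 5, 0 to 3 and 0 to 2; in hepatocytes 0 to 2, 1 to 1 and 0 to 1. Pathway genes numbered 14 to 19, 21 to 27 and 18 to 25 in microglia, 5 to 13, 3 to 13 and 3 to 9 in BMDM, and 0 to 2, 1 to 1 and 0 to 2 in hepatocytes. Response differences numbered 1 to 2 with saringosterol and 2 to 3 with GW for microglia minus BMDM, 2 to 2 and 3 to 4 for microglia minus hepatocytes, and 1 to 2 and 0 to 1 for BMDM minus hepatocytes. Vehicle levels gave 3 to 5, 6 to 7 and 5 to 6 calls for microglia minus BMDM, hepatocytes minus microglia and hepatocytes minus BMDM. Over all genes, the fit of 27 libraries called 690 in microglia with saringosterol against 1743 in the separate fit, in BMDM 2471 with saringosterol against 1643 and 2442 with GW against 1606, and in hepatocytes 57 with saringosterol against 307, 88 with GW against 178 and 146 between the compounds against 316. In the separate hepatocyte fits the replicate block called 782, 286 and 544 in the same order, and with saringosterol DESeq2 called 470 and no filter 491. For response differences to saringosterol, DESeq2 called 908 and no filter 700 against 382 for microglia minus BMDM, and DESeq2 443 against 224 for microglia minus hepatocytes; for GW, BMDM minus hepatocytes, DESeq2 called 1352 against 899. Tlr9 and, in hepatocytes, Tlr7 are limited by depth.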
